A study of Canis lupus familiaris with 2 samples.

Results

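The nuclear genes for the respiratory chain and the ATP synthase were compared between J3T-1 and J3T-2, subclones of the canine glioma cell line J3T, which are studied for their unlike patterns of growth and vessel formation. The genes were chosen by symbol alone: every probe set (a group of short probes for 1 transcript) whose annotation gives a single symbol starting with NDUF, SDHA, SDHB, SDHC, SDHD, UQCR, COX4, COX5, COX6, COX7, COX8 or ATP5, or equal to CYC1 or CYCS. This gave 76 genes on 149 probe sets, of 15115 genes named by the array annotation. Both subclones were grown in the same serum-containing medium with penicillin and streptomycin, no other treatment or genetic change is named in the labels, and each was hybridized to 1 array. Every value is therefore a single measurement of 1 culture, without replicates, and no test between the subclones was possible. Each array reports relative levels, so an equal change of these transcripts and of all other RNA in a cell would not be seen, and a change in a share of the cells cannot be told apart from a change in every cell.

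The respiratory chain passes electrons from NADH and succinate to oxygen across the inner mitochondrial membrane and pumps protons as it does so. Complex I takes electrons from NADH and complex II, succinate dehydrogenase, takes them from succinate. Ubiquinone carries them to complex III, cytochrome c carries them on to complex IV, and complex V, the ATP synthase, makes ATP from the proton gradient. Most subunits are encoded in the nucleus, a few core subunits of complexes I, III, IV and V in the mitochondrial genome, and the latter were not analysed here. Assembly factors help to build a complex without being part of the finished enzyme. The symbol rule takes in those whose names start with NDUFAF or SDHAF.

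Signals are MAS5 intensities on a linear scale. A floor was set at the median signal of each array, 19.0 (J3T-1) or 22.0 (J3T-2). A gene counted as measured when the signal of the probe set that stands for it passed the floor in J3T-1, J3T-2 or both. Of the 76 genes, 73 were above the floor on both arrays, with signals from 100.8 to 5014.3 in J3T-1 and from 146.5 to 5140.4 in J3T-2. COX6A2 was above it in J3T-1 only, COX4I2 and NDUFA4L2 were at the floor on both. Where a pair of signals is given, J3T-1 comes first. Ratios are J3T-2 over J3T-1 on the log2 scale, so that a negative value means a higher signal in J3T-1. Over all 9433 measured genes the ratio had a median of 0.17, and values relative to it are named as such. Where a gene had several probe sets, their log2 ratios varied with an SD of 0.19 (44 of these genes) or 0.26 (4580 genes of the whole array). This SD is the only error estimate and is technical. It compares probe sets on the same pair of arrays, so it holds neither error shared by a whole array nor spread between cultures. Of 7 glial and glioma markers looked at, VIM (8129.9 and 7960.8), NES (55.3 and 69.3), SOX2 (411.1 and 1191.0, 2.90-fold higher in J3T-2) and SLC1A3 (771.3 and 2396.3, 3.11-fold) were above the floor on both arrays, and GFAP, S100B and AQP4 at the floor on both. Of 6 microglia and leukocyte markers, CD68 alone was above the floor on both arrays, at 19.5 and 23.0, and CD3E on that of J3T-1, at 20.1. Of 6 endothelial markers, CDH5 and VWF were, at 36.8 and 26.5 and at 21.0 and 22.8. Of 5 neuronal markers, NEFL was above it at 120.3 and 1335.6 and TUBB3 at 146.8 and 82.0, with the probe sets of TUBB3 on both sides of 0, and SYT1 in J3T-2 only, at 25.2. The part of these cell type markers in the results was not tested.

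Without rescaling of the arrays, the 74 measured genes kept close to equal signals in the subclones. Their median log2 ratio was 0.02, which is 0.15 below that of all measured genes, and 57 of the 74 lay below the all-gene median and 17 above it. Ratios ran from -0.82 for CYCS to 0.96 for COX7A1, with an interquartile range of 0.29 against 0.61 over all measured genes. Within 1.2-fold of equal signal lay 73% of them, against 41.2% of all measured genes and 59.6% of the 1466 genes with a signal of at least 500 on both arrays. These brighter genes are a second background chosen after the values were seen, with a median of 0.09 and an interquartile range of 0.39. The 59 of the 74 genes that were this bright had a median of 0.03. The 1.2-fold window is centred on a log2 ratio of 0, which is nearer the median of the 74 than that of either background. Part of the gap in these shares can therefore come from the scaling, and the shares are given for unscaled signals only.

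No gene of the 74 reached a 2-fold difference. Among all measured genes 3.49% did so on the side of J3T-1 and 7.28% on that of J3T-2, and among the brighter genes 1.16% and 1.84%. A difference of 1.5-fold was reached on the side of J3T-1 by 3 genes, CYCS, SDHAF3 and NDUFA9, where 7.71% of all measured genes and 3.41% of the brighter ones reached it. On the side of J3T-2 it was reached by 2, COX7A1 and NDUFA6, against 19.7% of all measured genes and 8.73% of the brighter ones. The counts depend on the scaling. With ratios centred on the all-gene median, 7 genes reached 1.5-fold on the side of J3T-1, the former 3 with NDUFA5, NDUFAF4, SDHAF1 and NDUFAF2, and COX7A1 alone on the side of J3T-2, against 11.6% and 13.3% of all measured genes. Quantile normalization and a loess fit gave the same 7 and 1, against 12.4% and 12.4% of all measured genes with the former and 12.1% and 12.7% with the latter.

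**Figure D1:**
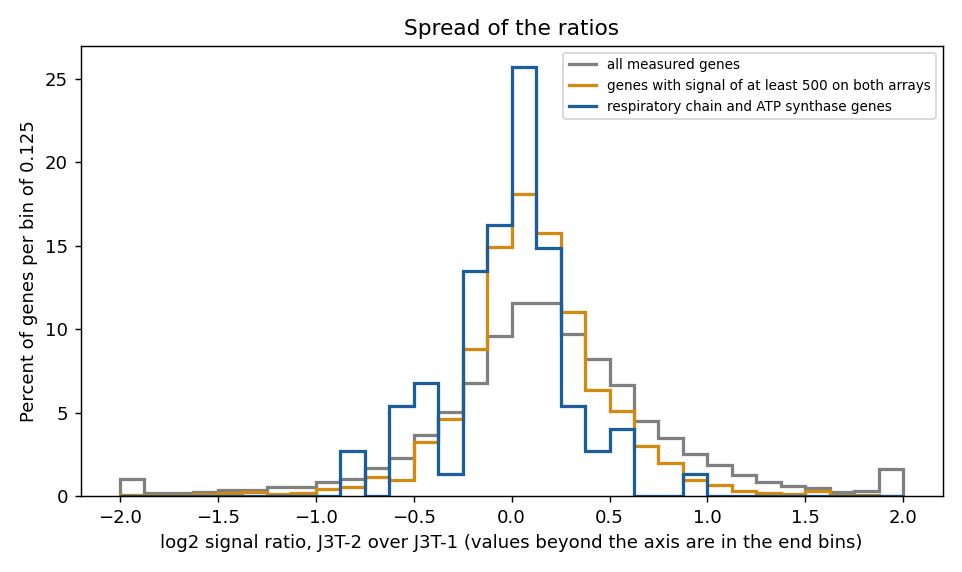
Percent of genes (y axis) in each bin of the log2 signal ratio, J3T-2 over J3T-1 (x axis), for all measured genes, for genes with a signal of at least 500 on both arrays and for the 74 respiratory chain and ATP synthase genes. The 74 genes fill a narrower range, with an interquartile range of 0.29 against 0.61 for all measured genes.

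**Figure D2:**
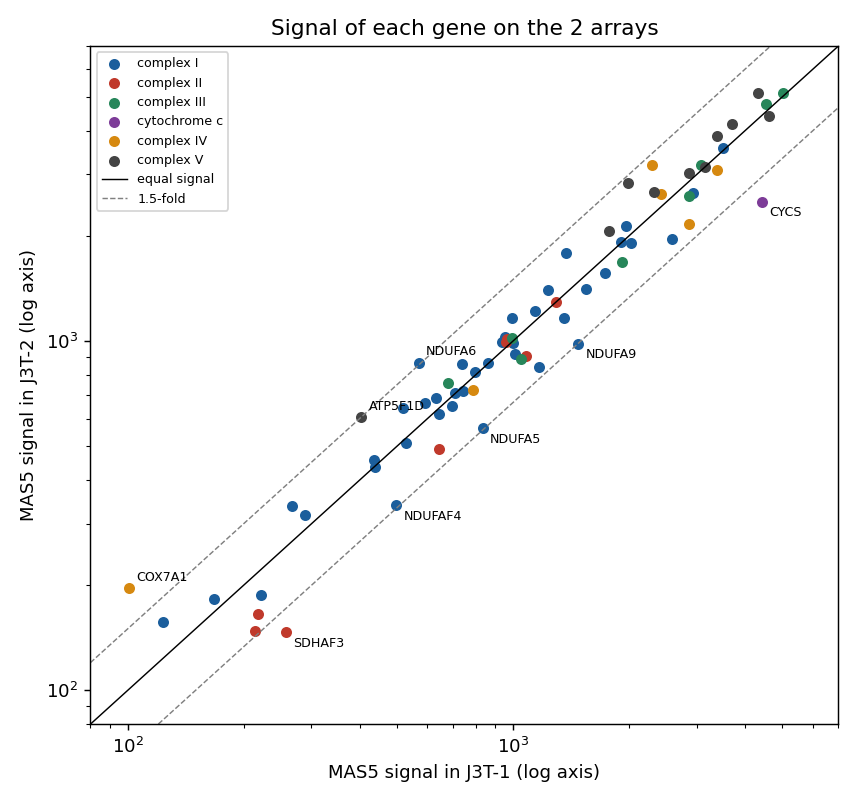
MAS5 signal in J3T-1 (x axis) against J3T-2 (y axis), both on log axes, for the 73 genes above the floor on both arrays, 1 point per gene, coloured by complex. The solid line is equal signal and the dashed lines are 1.5-fold, and CYCS, SDHAF3, NDUFA9, COX7A1 and NDUFA6 lie outside the dashed lines.

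By complex, complex II had the lowest median log2 ratio and complex V the highest. The medians were -0.32 over 8 genes of complex II, -0.06 over 7 measured genes of complex IV, 0.01 over 40 of complex I, 0.04 over 8 of complex III and 0.20 over 10 of complex V. Relative to all measured genes these are -0.49, -0.23, -0.15, -0.13 and 0.03, so complex V sat near the array's own median and the others below it. Genes with a signal of at least 500 on both arrays had a lower median, 0.09, than all measured genes. With a loess fit of the ratio on signal, the medians in the same order were -0.46, -0.24, -0.125, -0.08 and 0.09. Without assembly factors, isoforms and related proteins, and with no rescaling, complex II was at -0.12 over 4 genes and complex IV at -0.01 over 4. Complex V kept all 10 genes, the inhibitor ATP5IF1 included, and stayed at 0.20. The signs of the plain medians of complexes I and III turned negative under each of the 3 scalings (centring, quantile and loess), that of complex III also when all probe sets of a gene were used, and that of complex IV turned positive with the floor at the 25th or 75th percentile and with no floor (its middle value is the bound for COX6A2), so they are given no direction. Complex II had the lowest and complex V the highest median in all 9 settings tried, main one included. The gap between them ran from 0.41 to 0.60 in log2. Not all of these settings could have changed the order. Centring shifts every ratio alike, and the floors at the 25th and 75th percentile left both medians as in the main setting. The largest gap came without probe sets whose names end in _x_at or _s_at, a setting in which SDHA and SDHB were not measured. The comparison without assembly factors, isoforms and related proteins is not among these settings. Its medians for complexes II and V, -0.12 and 0.20, lie closer together. Whether the complexes differ beyond the spread of cultures could not be tested.

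**Figure D3:**
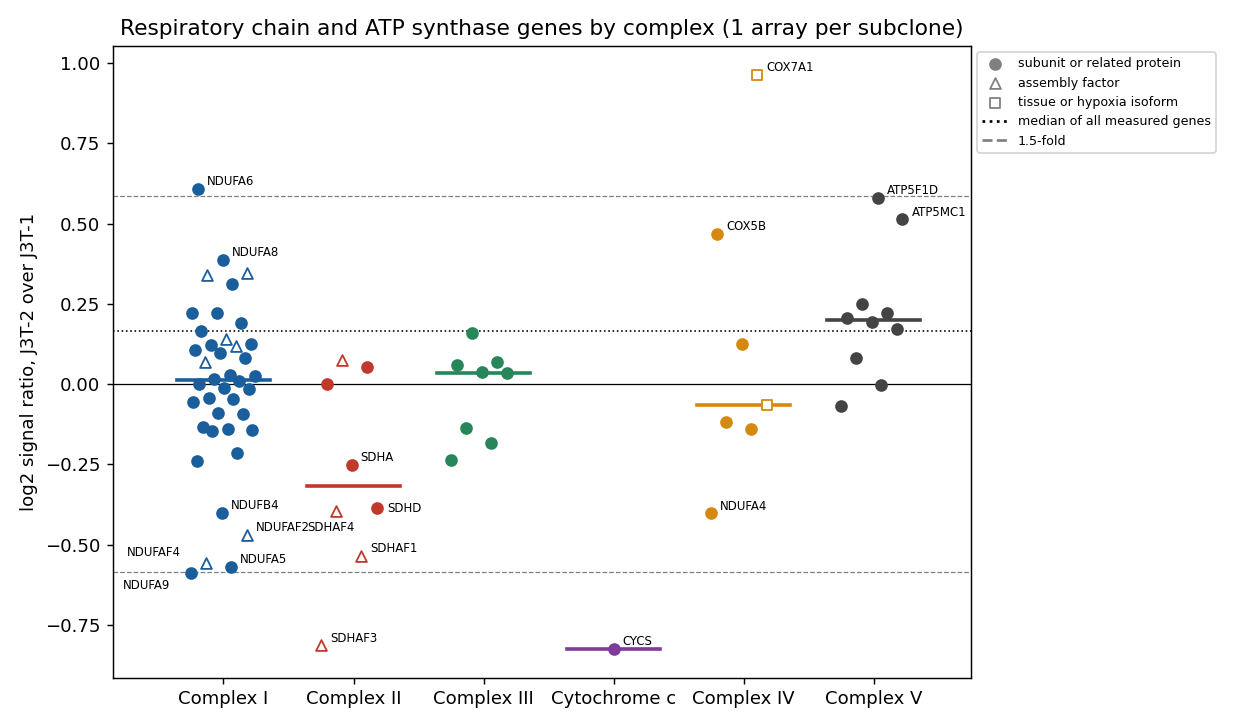
Log2 signal ratio, J3T-2 over J3T-1 (y axis), of each measured gene by complex (x axis), with the median of each complex as a bar. Filled circles are subunits or related proteins, triangles are assembly factors and squares are tissue or hypoxia isoforms. All 8 genes of complex II lie below the dotted line, the median of all measured genes, and 7 of the 10 genes of complex V lie above it.

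Complex I, NADH dehydrogenase, has an N module that binds NADH, a Q module that reduces ubiquinone, and a membrane arm that pumps protons. The 33 subunits had a median log2 ratio of 0.00, with 16 above 0 and 17 below. To the N module 11 of them were assigned here, at a median of 0.08. The core subunits of that module went from -0.21 (NDUFV2) through 0.03 (NDUFS1, an iron-sulphur subunit) to 0.12 (NDUFV1, which holds the NADH site). The probe sets of NDUFS1 ran from -0.14 to 0.50. NDUFA6, an accessory subunit, had signals of 569.6 and 868.5, 1.52-fold higher in J3T-2, and was the complex I gene furthest towards J3T-2. Its other probe sets were at the floor on both arrays.

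All 5 measured subunits assigned here to the Q module lay below the all-gene median. NDUFA6 and NDUFA7, at 0.61 and 0.22, were counted with the N module, and the statement rests on that assignment. The core subunits NDUFS3, NDUFS8 and NDUFS7, which carry or flank iron-sulphur clusters next to the ubiquinone site, had log2 ratios of 0.00, -0.05 and -0.09. The accessory subunits were further down. NDUFA9, at the junction of the peripheral and membrane arms, had signals of 1476.1 and 982.5, 1.502-fold higher in J3T-1, or 1.65-fold by its other probe set. NDUFA5 had signals of 835.5 and 563.0, 1.48-fold higher in J3T-1. Core and accessory subunits so assigned thus had unequal ratios, the core at a median of -0.05 and the accessory pair at -0.58.

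The 17 measured accessory subunits of the membrane arm had a median log2 ratio of 0.01 and ran from -0.40 to 0.39. NDUFB4 was at the lower end, with signals of 2590.1 and 1962.8. NDUFA8 was at the upper end, with 1369.8 and 1792.3. The other 15 lay between -0.14 (NDUFC1) and 0.31 (NDUFB11). NDUFC1 had a dimmer probe set that went the other way, at 0.52. Probe sets of NDUFB6 (-0.05 to 0.58), NDUFB5 (-0.04 to 0.22) and NDUFS5 (-0.02 to 0.06) also lay on both sides of 0.

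Complex I assembly factors ran from -0.56 to 0.35, with NDUFAF4 and NDUFAF2 lower in J3T-2 and the other 5 measured between 0.07 and 0.35. NDUFAF4 had signals of 498.6 and 338.7, 1.47-fold higher in J3T-1, or 1.64-fold by its other probe set. NDUFAF2, which binds a late assembly intermediate, had 1171.0 and 845.3, 1.39-fold higher in J3T-1, or 1.68-fold by its other probe set. At the upper end NDUFAF7, a methyltransferase that acts on a core subunit, had 123.5 and 157.1, and NDUFAF6 had 267.0 and 337.9.

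Complex II is the enzyme that the chain shares with the citric acid cycle, and all of its subunits are nuclear. SDHB, the iron-sulphur subunit, had signals of 1291.4 and 1292.9, and SDHC, a membrane anchor, 959.9 and 996.8. SDHA, the flavin-bearing catalytic subunit, had 1080.1 and 907.8, 1.19-fold higher in J3T-1. SDHD, the other membrane anchor, had 643.0 and 492.0, 1.31-fold higher in J3T-1. So the log2 ratios of SDHB and SDHC were 0.00 and 0.05, and those of SDHA and SDHD -0.25 and -0.39.

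Among the complex II assembly factors, 3 of 4 had higher signals in J3T-1. Of all 9433 measured genes, 3245 had a log2 ratio below 0. SDHAF3, which with SDHAF1 helps to mature the iron-sulphur subunit, had signals of 257.4 and 146.5, 1.76-fold higher in J3T-1, from 1 probe set. SDHAF4, which binds the catalytic subunit, had 217.8 and 165.5, 1.32-fold higher in J3T-1, or 1.45-fold by its other probe set. SDHAF1, needed to fit the iron-sulphur clusters, had 214.1 and 147.8, 1.45-fold higher in J3T-1. Its dimmer probe set, at 52.2 and 58.2, went the other way, and the median of its probe sets was -0.19 against -0.53. SDHAF2, which attaches the flavin to SDHA, was the exception, with 964.7 and 1017.2.

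Complex III passes electrons from ubiquinol to cytochrome c, and its 8 genes had log2 ratios between -0.24 and 0.16. CYC1, the cytochrome c1 subunit, had signals of 679.1 and 757.7, and UQCRFS1, the Rieske iron-sulphur subunit, 2859.6 and 2600.3. Of the core proteins, UQCRC1 had 3071.4 and 3199.4, and UQCRC2 1047.9 and 890.0. UQCRC2 was the lowest of the complex at -0.24, but its dim probe set at 41.0 and 59.5 gave 0.54, so its direction depends on the probe set. Among the accessory subunits UQCRQ was at 0.07 and UQCR10 at -0.18. None of the 8 was above the all-gene median of 0.17.

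CYCS, the cytochrome c that shuttles electrons between complexes III and IV and that also starts apoptosis when released from mitochondria, had the largest difference towards J3T-1 of the 74 genes. Its signals were 4433.7 and 2502.9, 1.77-fold higher in J3T-1. The other probe set had 3407.4 and 1840.4, or 1.85-fold. Over the alternative settings its log2 ratio stayed between -0.99 and -0.82. The electron donor to it, complex III, had no gene past 1.18-fold on the side of J3T-1.

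Complex IV, cytochrome c oxidase, passes the electrons to oxygen. Of its common subunits COX4I1, COX5B and COX8A were measured by probe sets with 1 symbol. COX4I1, through which ATP regulates the enzyme, had signals of 3395.2 and 3084.7. COX5B, which binds zinc, had 2299.6 and 3183.8, 1.38-fold higher in J3T-2. COX8A had 2423.1 and 2642.1, with probe sets on both sides of 0. NDUFA4, once placed in complex I and now counted as a complex IV subunit, had 2863.9 and 2167.0, 1.32-fold higher in J3T-1, but 1.07-fold by its other probe set. COX7A2L, a factor in joining complexes III and IV, was at -0.12.

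The isoforms of complex IV that replace common subunits in certain tissues or under low oxygen were at or near the floor, apart from COX7A1, which was above it but dim. COX7A1, best known from heart and skeletal muscle, had signals of 100.8 and 196.7, 1.95-fold higher in J3T-2, the largest ratio of all 74 genes. It rests on a single probe set, and its log2 ratio stayed between 0.79 and 0.96 over the settings tried. COX6A2, also a muscle isoform, had 23.0 in J3T-1 and lay at the floor in J3T-2 (19.3). Against that floor J3T-1 was at least 1.05-fold higher. COX4I2 and NDUFA4L2, both known as induced by low oxygen, were at the floor on both arrays, at 10.7 and 12.4 and at 9.4 and 13.0, so that no ratio is given.

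Complex V had 8 of 10 genes above 0, where 6171 of all 9433 measured genes also lay, and 7 above the all-gene median. In the F1 head, where ATP is made, ATP5F1A had signals of 4625.1 and 4408.6, and the catalytic subunit ATP5F1B 4321.7 and 5140.4. The other probe set of ATP5F1B gave 1.40-fold against 1.19-fold. ATP5F1C, the rotating shaft, was at 0.08. ATP5F1D, also of the central stalk, had 404.2 and 604.6, 1.496-fold higher in J3T-2, just under the 1.5-fold rule, with 1.54-fold from its other probe set.

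The c ring, which turns as protons pass, is built from 1 protein encoded by several genes. ATP5MC1 had signals of 1988.6 and 2838.1, 1.43-fold higher in J3T-2. ATP5MC2 and ATP5MC3 had log2 ratios of 0.17 and 0.19. ATP5PO of the peripheral stalk and ATP5J2 of the membrane part were at 0.22 and 0.21. ATP5IF1, the inhibitor that blocks the enzyme from running backwards, had 3154.9 and 3146.9. Its ratio of 0.00 and that of ATP5F1A, -0.07, were the only ones of the complex not above 0, and the second probe set of ATP5F1A gave 0.02.

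Of the 44 genes with several probe sets that passed both floors, 31 had all of them on the same side of 0 and 13 on both sides. The probe sets of the genes with the largest ratios stayed on their side, namely those of CYCS, NDUFA9, NDUFAF4, NDUFAF2, SDHAF4, ATP5F1D, NDUFAF6 and NDUFAF7, with SDHAF1 as the exception. SDHAF3, NDUFA5, NDUFA6, NDUFB4, NDUFA8, SDHA, SDHD, COX7A1, COX5B and ATP5MC1, among others, had a single usable probe set, so nothing on the array checks them. Many of these genes are small, highly expressed and known to have processed copies elsewhere in genomes, and probe sets with the suffixes _s_at and _x_at can take up such copies, whose part in these values was not tested. Without those probe sets 46 of the genes were measured. Among those not measured then were SDHA, SDHB, NDUFA5, NDUFA6, NDUFA8, COX5B, ATP5MC1, CYC1 and UQCRFS1.

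**Figure D4:**
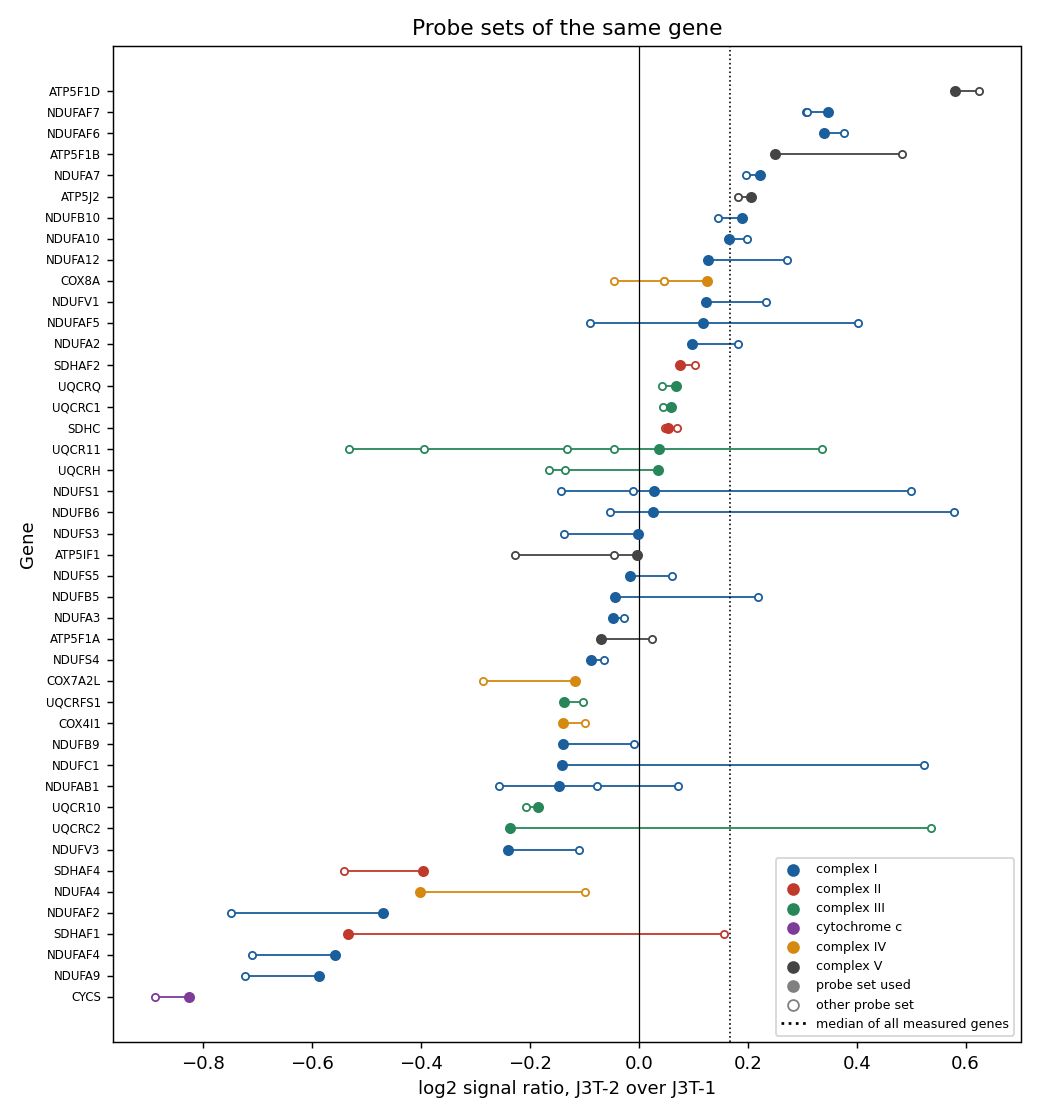
Log2 signal ratio, J3T-2 over J3T-1 (x axis), of every probe set that passed both floors, for the 44 genes (y axis) that have several, with the probe set used as a filled point and the others as open points, coloured by complex. The 2 probe sets of CYCS sit together at -0.82 and -0.89, while those of UQCRC2 lie on both sides of 0.

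On chromosomes 9, 10 and 14 the respiratory genes had ratios on the same side of 0 as the median of the other genes there. An earlier look at these arrays had set chromosomes 9, 10 and 14 apart. The other measured genes of chromosome 14 had a median log2 ratio of -0.26 over 155 genes, those of chromosomes 9 and 10 had 0.57 over 602 and 0.58 over 344, and the medians of the remaining chromosomes lay between -0.01 and 0.29. Of the measured respiratory genes, 4 lie on chromosome 14 (CYCS, SDHAF3, NDUFA5 and NDUFA4), and all 4 are among the 8 with the lowest ratios. On chromosomes 9 and 10 lie 5, and 4 of them (NDUFA6, ATP5MC1, COX5B and NDUFA8) are among the 8 with the highest ratios, the other being ATP5F1B. The number 8 was chosen with the values known. Without the 9 genes of these chromosomes the median of the rest was 0.02, as with them, and complexes II and V had medians of -0.25 and 0.18.

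Each gene was then set against its nearest measured neighbours, up to 10 on each side along the chromosome. CYCS, at -0.82, lay among neighbours with a median of -0.43, SDHAF3, at -0.81, among neighbours at -0.33, and NDUFA6, at 0.61, among neighbours at 0.62. The ratios of the 74 genes and the medians of their neighbours correlated with r = 0.62 (Spearman's rho 0.56), and without chromosomes 9, 10 and 14 with r = 0.31 (rho 0.37, 65 genes). This is a description across genes that share the same pair of arrays and, where they lie close together, some of the same neighbours. Of the 74, 65 (87.8%) lay below the median of their neighbours, by 0.15 in log2 at the median. Of all measured genes with a chromosome 50.5% did, and of those with a signal of at least 500 on both arrays 58.6%. At least 0.5 below were 8 of the 74 (10.8%): SDHAF4, SDHAF1, NDUFA9, NDUFB4, ATP5F1B, NDUFAF4, NDUFAF2 and SDHD. A difference of that size is common on these arrays, with 14.4% of all genes and 7.99% of the brighter ones at least 0.5 below their neighbours, so the count does not set these genes apart. COX7A1 alone was at least 0.5 above, at 0.96 among neighbours at 0.18, where 14.7% of all genes and 5.87% of the brighter ones were. The part of the chromosome-wide shifts in the ratios of single genes was not tested.

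**Figure D5:**
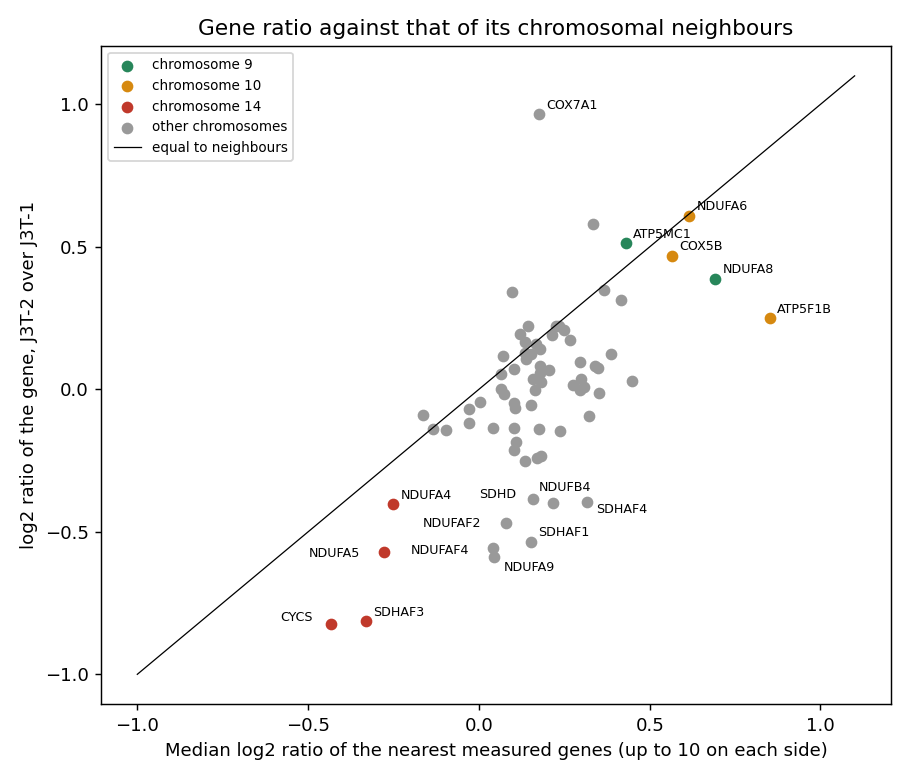
Log2 signal ratio of each of the 74 measured genes (y axis) against the median log2 ratio of its nearest measured neighbours on the chromosome, up to 10 on each side (x axis), with chromosomes 9, 10 and 14 coloured and the line of equal values drawn. The 4 genes of chromosome 14 lie at the lower left, the 5 of chromosomes 9 and 10 at the right, and COX7A1 stands furthest above the line, at 0.96.

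Other genes of the pathway are given by list, and their counts are to be read against the 7.71% and 19.7% of all measured genes that reached 1.5-fold on the side of J3T-1 and of J3T-2. Assembly factors named outside the symbol rule had a median log2 ratio of 0.09 over 28 measured genes, and 1.5-fold was reached by 0 of them on the side of J3T-1 and by 5 on that of J3T-2. COX17, the chaperone that brings copper to complex IV, was at the upper end, with signals of 209.5 and 418.3, just under 2-fold. The other 4 were TTC19 (1.73-fold), which acts on complex III, BCS1L (1.55-fold), which inserts the Rieske subunit, DMAC1 (1.54-fold, with its other probe set at -0.24) and NUBPL (1.52-fold), an iron-sulphur factor of complex I. With each of the 3 scalings COX17 and TTC19 alone reached it. FOXRED1 was the lowest at -0.34, with probe sets on both sides of 0. Import, cristae and carrier genes had a median of 0.01 over 26, close to that of the respiratory genes, from -0.55 for TOMM7, on chromosome 14, to 0.94 for TIMM22, on chromosome 9.

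Regulators of mitochondrial biogenesis went both ways, with a median of 0.17 over 15 measured genes and 2 at least 1.5-fold apart in each direction. TFB1M, which methylates mitochondrial ribosomal RNA, was 1.62-fold higher in J3T-1 and NRF1, a transcription factor for respiratory genes, 1.56-fold, at dim signals of 50.7 and 32.6 and on chromosome 14. TFAM, which packages mitochondrial DNA and starts its transcription, had 195.5 and 294.2, 1.505-fold higher in J3T-2, and POLG2, a polymerase subunit on chromosome 9, was 1.91-fold higher. TFAM was under 1.5-fold with each of the 3 scalings, which left POLG2 alone on the side of J3T-2. The coactivator gene PPARGC1A was at the floor on both arrays.

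A list of other oxidoreductases, most of which feed ubiquinone beside complexes I and II, had a median log2 ratio of 0.30 over 9 measured genes. That value is the ratio of NNT, a proton-moving transhydrogenase that does not reduce ubiquinone, and without it and AIFM1, whose place as a donor is not established, the median was 0.16 over 7. In the pathway lists 2-fold was reached by SQOR and AIFM2 here and by COQ4 among the ubiquinone synthesis genes. AIFM2 and COQ4 were under 2-fold with each of the 3 scalings, SQOR when the floor was raised to the 75th percentile, and COQ4 also with that floor, with the pseudocount and with the median over probe sets. SQOR, sulphide quinone oxidoreductase, had signals of 240.3 and 57.4, 4.19-fold higher in J3T-1. A second probe set had 127.0 in J3T-1 and was at the floor in J3T-2, at least 5.77-fold higher in J3T-1. Without probe sets ending in _x_at or _s_at, SQOR was not measured. AIFM2, a ubiquinone reductase of the plasma membrane that protects from lipid peroxidation, had 496.7 and 1087.6, 2.19-fold higher in J3T-2, with the other probe set at a log2 ratio of 1.56. GPD2, the mitochondrial glycerol-phosphate dehydrogenase, was 1.73-fold higher in J3T-2. Ubiquinone synthesis genes had a median of 0.00 over 12, from -0.62 for COQ10B to 1.12 for COQ4, which lies on chromosome 9 and whose other probe set gave 0.50.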

How the data were processed

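RNA of each subclone (250 ng) was labelled with biotin and hybridized to 1-colour canine arrays, per the labels' protocols. The authors deposited 1 signal intensity per probe set and array. MAS5 is named per the submitters' processing notes, with no version or scaling target in the sources used here. Of 43035 probe sets, 111 controls were left out. Gene symbols came from the array annotation. The floor, the log2 ratio and the choice of the brightest probe set of a gene (highest mean log2 of the deposited signals) were computed here, without rescaling. A ratio with 1 array at the floor is a bound. With 1 array per subclone no test was run, and genes were counted by size (1.5-fold and 2-fold). The number of arrays limits the precision. Chromosomes came from the assembly UU_Cfam_GSD_1.0 by gene identifier (by symbol for 2 respiratory genes) and only order genes, since no build is named for the array. The genes, lists and alternatives were chosen with earlier results of these data known. Named were all genes at least 2-fold apart, the 3 highest and 3 lowest of each complex, all of complex II, CYC1, CYCS, the isoforms, genes at the floor on 1 array and, in other lists, the extremes and genes at least 2-fold apart; others were chosen after their values were seen. The 2-fold count was checked on simulated data that lacked the array-wide and chromosome-wide shifts of the real arrays. The 1.5-fold count was not checked in this way. Used were Python 3.11.15, numpy 2.4.6, pandas 2.3.3, scipy 1.17.1, statsmodels 0.14.6 and matplotlib 3.10.9.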

Additional observations from a re-analysis of the deposited data

How the results depend on the processing

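Of the alternatives tried, 3 changed the scaling (centring on the all-gene median, quantile, or loess), 3 the floor (lower, higher, or a pseudocount of 16 in its place) and 2 the probe sets (their median for each gene, or none ending in _x_at or _s_at). The count of respiratory genes past 1.5-fold on the side of J3T-1 went from 3 to 7 under each of the 3 scalings, to 5 with the median over probe sets and to 2 with the pseudocount (NDUFA9 fell short). That on the side of J3T-2 went from 2 to 1 under each scaling and to 3 with the median over probe sets (ATP5F1D passed). Under the scalings the shares of all measured genes moved the same way. They went from 7.71% to between 11.6% and 12.4% on the side of J3T-1, and from 19.7% to between 12.4% and 13.3% on that of J3T-2. Leaving NNT and AIFM1 out of their list was chosen after seeing the data. The median of these genes relative to all measured genes ran from -0.15 to -0.05, the plain median of complex II from -0.49 to -0.22 and that of complex V from 0.03 to 0.20. Leaving out assembly factors, related proteins and isoforms gave a plain median of 0.02 over 60 genes. UQCRC2 was at 0.54 without _x_at and _s_at probe sets, and SQOR at -0.99 and COQ4 at 0.43 under the higher floor, at the 75th percentile. Signal near the floor limits COX6A2, COX4I2 and NDUFA4L2. No paired analysis was possible because each subclone has 1 array.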
